A study of Caenorhabditis elegans with 8 samples.

Results

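The core spliceosome genes are the genes for the proteins that remove introns from pre-mRNA, and 50 of them were listed by name for description in whole adult Caenorhabditis elegans. Of these, 49 had at least 1 intron in the authors' junction table and are described here, out of 5762 genes measured in all. They carried 183 of the 20324 introns measured. No row was matched to the listed name sap-1, which was not analysed here. The members fall by role into the Sm ring (7 genes), the U1 snRNP (2), the U2 snRNP with the factors that recognise the branch point and acceptor (9), the U4/U6.U5 tri-snRNP (9), the Lsm ring (7), the Prp19 complex and its partners (9), the DEAH remodelling helicases (4) and other splicing-associated genes (2).

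The spliceosome is built anew on each intron from small nuclear ribonucleoproteins (snRNPs), each an RNA carried in a ring of Sm or Lsm proteins. The U1 snRNP marks the donor site, the branch-point protein, U2AF and the U2 snRNP mark the other end of the intron, and the U4/U6.U5 tri-snRNP then joins. The Prp19 complex steadies the active spliceosome, and DEAH helicases drive several of the rearrangements and finally take the machine apart. In C. elegans several of these genes were first found as mog genes, whose loss turns the hermaphrodite germ line towards making only sperm.

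The study compared N2 wild-type worms fed bacteria that made spk-1 double-stranded RNA, here spk-1(RNAi), with N2 worms fed bacteria holding the empty L4440 vector, here control, in 4 libraries each. The kinase SPK-1 phosphorylates SR proteins, splicing factors rich in serine and arginine. All worms were grown at 20 °C, moved as L4 larvae to the feeding bacteria for 24 h at 25 °C and collected as adults, at least 100 per condition, and all groups therefore share the N2 background and the shift in temperature. Nothing in the labels says that replicates came from separate cultures, so the tests measure only the spread between these libraries, which may be technical, and in whole worms fewer cells of a type and less RNA per cell cannot be told apart.

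Controls 1 to 4 held 7938914, 1821717, 47299659 and 28177090 junction reads, and spk-1(RNAi) 1 to 4 held 4279845, 2660062, 40426751 and 29551827. Every listed intron had at least 21 reads in every control library, whereas spk-1(RNAi) libraries went down to 1 read, so an intron scarce in any control, or one used mainly after spk-1(RNAi), could not be seen. No member was removed by the filter on low counts, and the lowest member sum in a library was 27 reads. The targeted gene was examined first. Over 8 introns of spk-1, summed junction reads were 313, 309.7, 507 and 557 CPM (reads scaled to the library's size) in controls 1 to 4 and 48.1, 77.3, 154 and 169.7 CPM in spk-1(RNAi) 1 to 4, lower in 4 of 4 pairs. Over its 2 other introns, after exons 6 and 7, the sums were 103.8, 68.9, 153 and 155 CPM in controls against 4835, 63630, 1881 and 2993 CPM after spk-1(RNAi). The split between these introns was made after their values were seen. Reads over spk-1 took 0.0464% to 0.0628% of all junction reads in controls and 0.614%, 6.25%, 0.178% and 0.277% in spk-1(RNAi) 1 to 4.

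The summed junction reads of core spliceosome genes did not change past the threshold of edgeR's test after spk-1(RNAi). Only reads across removed introns are counted, so a change in splicing and one in the amount of RNA cannot be told apart. The members took 0.728%, 0.729%, 0.680% and 0.678% of all junction reads in controls 1 to 4 and 0.723%, 0.668%, 0.702% and 0.702% in spk-1(RNAi) 1 to 4, and the groups overlapped. The reads over spk-1 lower this share after spk-1(RNAi), most in replicate 2. With spk-1 reads left out the shares were 0.728%, 0.730%, 0.681% and 0.678% in controls. After spk-1(RNAi) they were 0.727%, 0.713%, 0.703% and 0.703%. The sum of junction reads of each gene was compared in edgeR (quasi-likelihood test, Benjamini-Hochberg adjustment over all genes). With group as the one term, 0 of 49 members and 0 of 5762 genes (0.0%) passed an adjusted p of 0.05, and the adjusted p was 1.0 for each member. At an unadjusted p under 0.05 the test held 1 member under the gene names as deposited, syf-2, which was higher. Of all genes it held 54 (0.937%), of which 25 were higher (0.434%). With libraries of the same number treated as a pair (a replicate block), 0 members and again 0 genes passed (0.0%). At an unadjusted p under 0.05 that fit held 4 higher members, rnp-7, rnp-2, plrg-1 and syf-2, or 8.16% of members against 5.09% of all genes, and 2 lower members, syf-1 and tcer-1, or 4.08% against 4.51%. DESeq2's Wald test called 0 members and 0 genes without the block (0.0%). With the block it called 1 member, syf-2 (adjusted p = 0.0177), or 2.04% of members against 0.573% of all genes called higher and 0.885% called in either direction.

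The spread of the members' log2 fold changes (spk-1(RNAi) over control) was narrow and lay about 0. Their median was 0.02, beside a median of -0.0045 over all genes. They ran from -0.51 in syf-1 to 0.52 in rnp-2, and 30 of 49 (61.2%) were above 0, beside 49% of all genes. In the blocked fit the 95% interval of every one of the 49 members lay within a 2-fold change in either direction, and for 42 of 49 it lay within a 1.5-fold change. The 7 whose interval reached past 1.5-fold were snr-4, rnp-7, rnp-2, repo-1, plrg-1, syf-1 and syf-2. Without the block the intervals were wider, 39 of 49 within 2-fold and 11 of 49 within 1.5-fold. Intervals were not counted over all genes, so these counts cannot be set beside a share of them. Under the gene names as deposited, in 0 members did the 4 control libraries and the 4 spk-1(RNAi) libraries fail to overlap, whereas this held for 1.04% of all genes. Higher values in 4 of 4 pairs were seen in 5 members (10.2%, beside 9.63% of all genes), rnp-7, rnp-2, prp-4, syf-2 and ddx-15. Lower values in 4 of 4 pairs were seen in 3 (6.12%, beside 9.55%), prp-6, lsm-6 and tcer-1. Neither count of members stood far from the share of all genes.

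**Figure D1:**
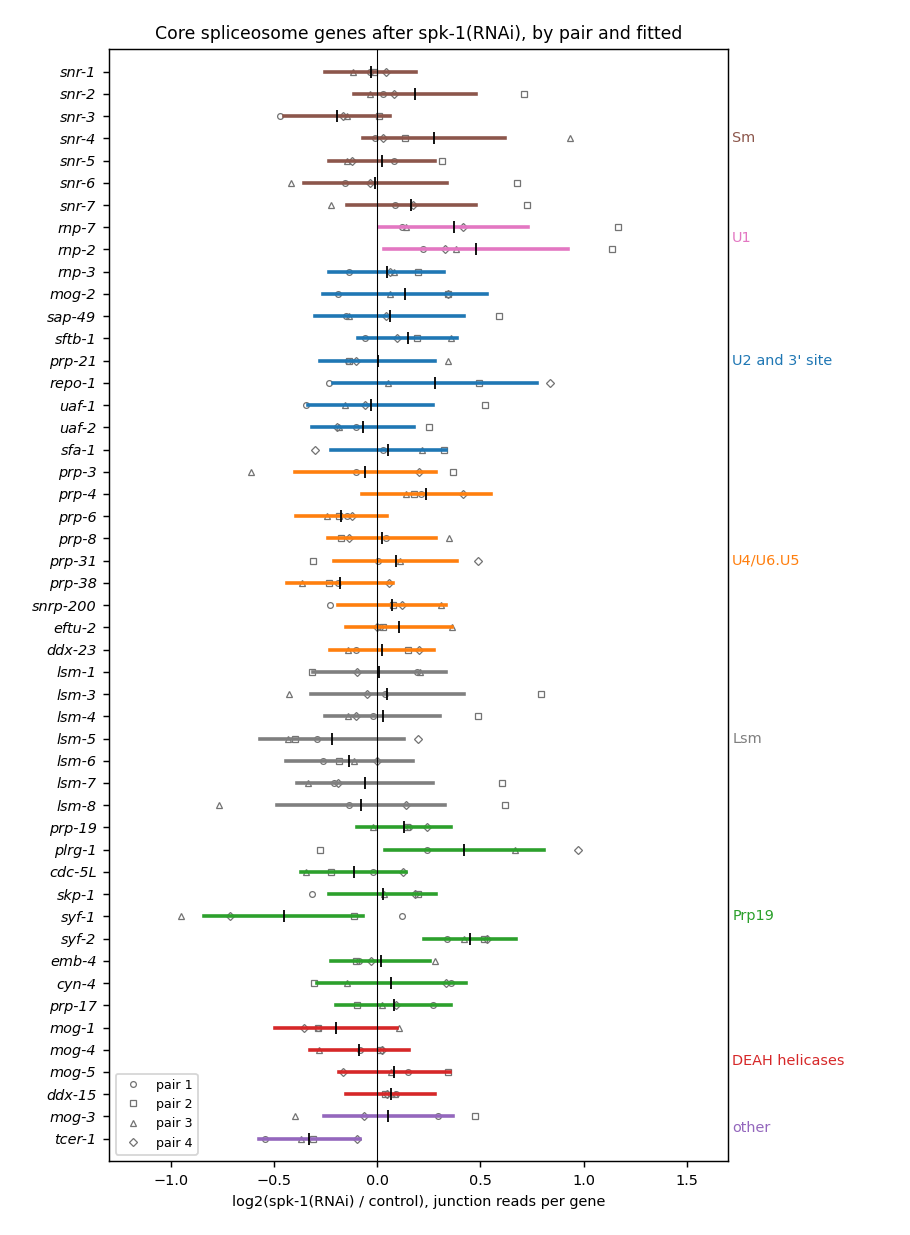
Log2 ratio of spk-1(RNAi) to control junction reads per gene (horizontal axis) for each of the 49 measured core spliceosome genes, in order of role. Open symbols are the 4 same-numbered pairs, the black tick is the edgeR estimate with pairs as a block and the coloured bar its 95% interval. Every bar stays between -1 and 1, and pair 2 (squares) lies to the right of the other pairs in most Sm genes and in both U1 genes.

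Levels were compared between genes as CPM per listed intron, so that a gene would not stand higher only for having more listed introns. This is a rough measure, since introns of the same gene differed. In ddx-15 they ran from 16.1 to 44.9 CPM in control 1. By the control mean, the 7 Sm genes held the 7 highest levels, from 102.8 CPM per intron in snr-1 to 214 in snr-6. Next came uaf-2, the small subunit of U2AF, at 74.1 CPM per intron, and the lowest was prp-4, a U4/U6 protein, at 12.8. This order did not hold in every library. In controls 3 and 4, uaf-2 and rnp-7 (as named in the table) lay above snr-4 per intron. The members' median was 33.1 CPM per intron, beside 21.1 for all genes, so the genes of the machine had more junction reads per intron than the typical measured gene. The genes of large U5 proteins were below every Sm gene, with 29.9 CPM per intron for prp-8, of the catalytic centre, and 31.6 for snrp-200, the helicase known as Brr2. The Lsm genes reached down to the same level, with 27.2 CPM per intron for lsm-3 and 33.1 for lsm-4.

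**Figure D2:**
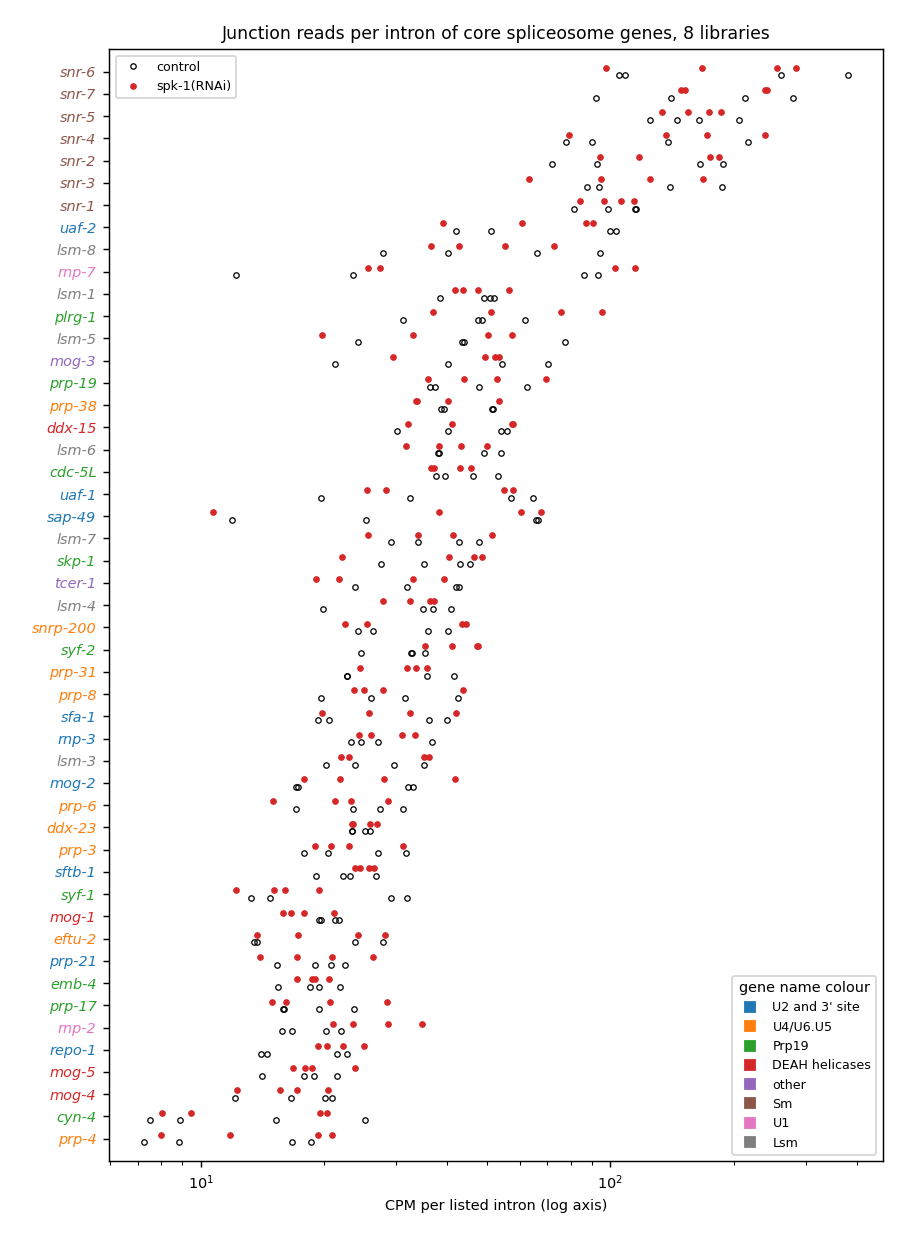
Junction reads per listed intron (CPM, log axis) of the 49 core spliceosome genes, ordered by the control mean, with open points for the 4 control and red points for the 4 spk-1(RNAi) libraries. The 7 Sm genes stand at the top and prp-4 at the bottom, and in every gene the red points fall among or overlap the range of the open ones.

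The Sm ring proteins bind the U1, U2, U4 and U5 RNAs. Their genes snr-1 (SmD3), snr-2 (SmB), snr-3 (SmD1), snr-4 (SmD2), snr-5 (SmF), snr-6 (SmE) and snr-7 (SmG) had a median log2 fold change of 0.02, with 4 above and 3 below 0. The highest and the lowest of them were snr-4 and snr-3. Junction reads of snr-4 were 276, 433, 180.1 and 155 CPM in controls 1 to 4 and 274, 476, 344 and 158 CPM in spk-1(RNAi) 1 to 4. The groups overlapped, and the difference lay mainly in pair 3. The means were 261 ± 126 and 313 ± 133 CPM (SD, n = 4), and the log2 fold change was 0.26 (SE 0.40), or 0.27 with the block (SE 0.16, adjusted p = 0.587). Of its 2 introns, the 50-nt one after exon 2 carried that difference, with 101 CPM in control 3 and 263 in spk-1(RNAi) 3, while the 603-nt one after exon 3 held 86.2 and 82.2 CPM. For snr-3 the values were 263, 282, 562 and 419.8 CPM in controls and 189.5, 284, 507 and 374 CPM after spk-1(RNAi). Again the groups overlapped, with a log2 fold change of -0.17 (SE 0.35), or -0.20 with the block (SE 0.12, adjusted p = 0.592). By pair, the median log2 ratio over the 7 Sm genes was -0.01, 0.31, -0.15 and 0.03 in pairs 1 to 4, so the highest was that of pair 2. Pair 2 holds the 2 shallowest libraries, 1821717 and 2660062 reads, and the spk-1(RNAi) library with 6.25% of its reads on spk-1, and the part of these in the pair's values was not tested.

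The 2 genes of the U1 snRNP were the group with the highest median log2 fold change, 0.42, and both were above 0. That median was 0.23 without control replicate 2, 0.27 without spk-1(RNAi) replicate 3 and 0.66 without control replicate 3. Under the deposited names each gene was measured over 1 intron, with 35 reads of rnp-2 and 27 of rnp-7 in control 2. In both genes pair 2 had the highest log2 ratio, 1.136 in rnp-2 and 1.165 in rnp-7. The gene rnp-2 encodes a U1-type RNA-binding protein. Its junction reads, over 1 listed intron of 1045 nt (chromosome IV, 4172687 to 4173731 in ce10), were 20.2, 15.8, 22.03 and 16.7 CPM in controls 1 to 4 and 23.6, 34.7, 28.6 and 21.01 CPM in spk-1(RNAi) 1 to 4. It was higher in 4 of 4 pairs, and the groups overlapped by a narrow margin, the highest control lying above the lowest spk-1(RNAi) library. The means were 18.7 ± 2.92 and 27 ± 6.06 CPM (SD, n = 4), a log2 fold change of 0.52 (SE 0.26), or 0.48 with the block (SE 0.20, adjusted p = 0.502). In pairs 1 and 2 alone the log2 fold change was 0.67 and in pairs 3 and 4 alone 0.35. Its neighbour on the same strand is rnp-3, the gene of a U2-type RNA-binding protein, with a gap of 72 nt in the reference annotation, and rnp-3 had a log2 fold change of 0.04 (SE 0.22).

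The other U1 gene, rnp-7, encodes the U1 70K protein, to which SR proteins are known to bind at donor sites in mammals. In the authors' table only 1 intron bears its name, the 68-nt intron after exon 6. Its junction reads were 23.5, 12.2, 93.2 and 86.4 CPM in controls 1 to 4 and 25.6, 27.3, 102.6 and 115 CPM in spk-1(RNAi) 1 to 4. It was higher in 4 of 4 pairs, but libraries 3 and 4 of either group held several times the level of libraries 1 and 2. The log2 fold change was 0.32 (SE 0.69), or 0.37 with the block (SE 0.16, adjusted p = 0.504), and the sign turned when spk-1(RNAi) replicate 4 was left out (-0.05). Its neighbour on the 5′ side, on the same strand, is syf-2, a partner of the Prp19 complex, with a gap of 4 nt in the reference annotation. Table rows under the sequence name of syf-2, K04G7.11, held 6 introns. The reference annotation gives syf-2 only 2 introns and rnp-7 5. Read along chromosome III from 7159281 to 7161924 (ce10, minus strand), the 7 listed introns are 68, 794, 47, 46, 44, 48 and 47 nt long, and these are the annotated lengths in the same order, the first 5 in rnp-7 and the last 2 in syf-2. By this match 4 of the 6 introns that the table names syf-2 belong to rnp-7.

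Under the names as deposited, syf-2 had 195, 148, 212 and 197 CPM in controls 1 to 4 and 246, 211, 283 and 284 CPM in spk-1(RNAi) 1 to 4. It was higher in 4 of 4 pairs, and only control 3, at 212 CPM, reached the lowest spk-1(RNAi) library. The means were 188 ± 27.7 and 256 ± 34.9 CPM (SD, n = 4), a log2 fold change of 0.45 (SE 0.20), or 0.45 with the block (SE 0.10, adjusted p = 0.193 in edgeR and 0.0177 in DESeq2). With the introns placed by their annotated lengths, a choice made after the data were seen, rnp-7 had 5 introns and 124, 91.3, 206 and 199.8 CPM in controls against 163, 136, 278 and 271 CPM after spk-1(RNAi). The means of rnp-7 were then 155 ± 56.6 and 212 ± 73.4 CPM (SD, n = 4). Its log2 fold change was 0.45 (SE 0.33), or 0.46 with the block (SE 0.10, adjusted p = 0.179 in edgeR and 0.0213 in DESeq2). On the same placement syf-2 kept 2 introns, with 94.7, 68.7, 98.9 and 83.4 CPM in controls and 109, 102.8, 108 and 128 CPM after spk-1(RNAi). Its groups then did not overlap, the means being 86.4 ± 13.5 and 112.1 ± 11.1 CPM (SD, n = 4), and the log2 fold change was 0.37 (SE 0.19), or 0.37 with the block (SE 0.12, adjusted p = 0.4 in edgeR and 0.319 in DESeq2). The single call of DESeq2's blocked test among the members therefore belonged to syf-2 under the deposited names and to rnp-7 under the annotated ones, with 51 genes called either way. In edgeR without the block, the unadjusted p on this placement was 0.0767 for syf-2 and 0.207 for rnp-7. That fit then held 0 members at an unadjusted p under 0.05. Both genes were higher in 4 of 4 pairs under both sets of names.

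**Figure D3:**
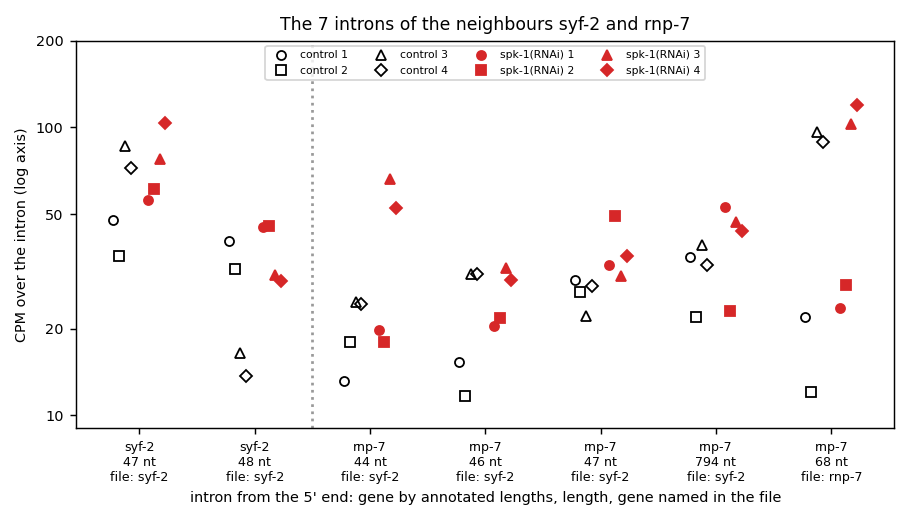
CPM over each of the 7 introns of the neighbours syf-2 and rnp-7 (log axis), ordered from the 5′ end, with open symbols for controls and red symbols for spk-1(RNAi) and 1 symbol shape for each replicate number. The dotted line marks the gene boundary by annotated intron lengths, and labels below give the length and the gene named in the table. The 44-nt intron stands out in spk-1(RNAi) 3 and 4, at 66.4 and 52.6 CPM against 24.7 and 24.3 CPM in controls 3 and 4.

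The 9 genes that recognise the branch point and the acceptor had a median log2 fold change of 0.05, with 7 above and 2 below 0. The highest was repo-1 (SF3A2), measured over 1 intron, with 22.8, 14.5, 21.5 and 14.04 CPM in controls 1 to 4 and 19.3, 20.3, 22.3 and 25.0 CPM in spk-1(RNAi) 1 to 4. The groups overlapped and pair 1 went the other way, and the log2 fold change was 0.26 (SE 0.27), or 0.28 with the block (SE 0.22, adjusted p = 0.715). The lowest was uaf-2, the U2AF subunit that reads the AG at the acceptor, with 126, 154, 310.2 and 299.5 CPM in controls and 117, 183, 273 and 261 CPM after spk-1(RNAi). Its groups overlapped, the library sets 1, 2 and 3, 4 differing more than the groups, and the log2 fold change was -0.09 (SE 0.36), or -0.07 with the block (SE 0.11, adjusted p = 0.874). Its partner uaf-1, the large subunit, was at 217 ± 105 and 208 ± 85.7 CPM (SD, n = 4), with a log2 fold change of -0.06. The others, rnp-3, mog-2, sap-49 (SF3B4), sftb-1 (SF3B1), prp-21 (SF3A1) and sfa-1, the branch-point protein SF1, lay between 0.02 and 0.14.

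Among the 9 genes of the tri-snRNP the median log2 fold change was 0.03, with 6 above and 3 below 0. The highest was prp-4, with 50.1, 55.6, 21.8 and 26.5 CPM in controls 1 to 4 and 58.0, 62.8, 24.0 and 35.3 CPM in spk-1(RNAi) 1 to 4. It was higher in 4 of 4 pairs, yet the groups overlapped because libraries 1 and 2 held more than libraries 3 and 4, and the log2 fold change was 0.23 (SE 0.40), or 0.24 with the block (SE 0.14, adjusted p = 0.594). The lowest was prp-6, a U5 protein that bridges to U4/U6, with 212, 153, 247 and 280.1 CPM in controls and 192, 135, 209 and 257 CPM after spk-1(RNAi). It was lower in 4 of 4 pairs within overlapping groups, with a log2 fold change of -0.17 (SE 0.26), or -0.17 with the block (SE 0.10, adjusted p = 0.587). The catalytic-centre protein prp-8 was at 269 ± 87.2 and 270.5 ± 83.2 CPM (SD, n = 4), a log2 fold change of 0.01, and ddx-23, the Prp28 helicase that displaces U1, at 97.8 ± 5.26 and 99.7 ± 6.85 CPM, a log2 fold change of 0.03 and the smallest standard error of all members (SE 0.16). The GTPase gene eftu-2 (Snu114), snrp-200, prp-3, prp-31 and prp-38 lay between -0.17 and 0.10.

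The Lsm proteins form a ring on U6, and with lsm-1 in place of lsm-8 a cytoplasmic ring that acts in mRNA decay. The 7 genes had a median log2 fold change of -0.02, with 2 above and 5 below 0. The highest as deposited was lsm-3, with 105, 60.5, 88.8 and 71.4 CPM in controls 1 to 4 and 108, 105, 66.05 and 69.0 CPM in spk-1(RNAi) 1 to 4, overlapping groups with a log2 fold change of 0.09 (SE 0.25), or 0.05 with the block (SE 0.17, adjusted p = 0.949). Of its 3 listed introns, 1 of 1075 nt has the length of an intron that the reference annotation gives to the neighbouring gene. Without it lsm-3 was at 62.9 ± 13.3 and 62.4 ± 12.3 CPM (SD, n = 4) and the log2 fold change was -0.02. The lowest was lsm-5, with 24.2, 43.4, 77.7 and 43.8 CPM in controls and 19.7, 32.9, 57.5 and 50.1 CPM after spk-1(RNAi). It was lower in 3 of 4 pairs within overlapping groups, with a log2 fold change of -0.23 (SE 0.41), or -0.22 with the block (SE 0.16, adjusted p = 0.681). Its 1 listed intron, of 345 nt, has no counterpart in the reference annotation, where lsm-5 has 0 introns, so the value may not be that of the annotated transcript. The decay gene lsm-1 was at 47.5 ± 6.27 and 47.4 ± 6.57 CPM (SD, n = 4), and lsm-8, its counterpart in the nuclear ring, at 114 ± 58.9 and 103.6 ± 32.1 CPM.

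The Prp19 complex and its partners held the member with the lowest log2 fold change, syf-1, and 2 of those well above 0, plrg-1 and syf-2. The group's median log2 fold change was 0.06, with 7 above and 2 below 0. The gene plrg-1 (Prp46), a core subunit, had 125, 248, 190.5 and 194 CPM in controls 1 to 4 and 148, 204, 303 and 381 CPM in spk-1(RNAi) 1 to 4. It was higher in pairs 1, 3 and 4 and lower in pair 2, and the groups overlapped. The means were 189 ± 50.2 and 259 ± 103.6 CPM (SD, n = 4), a log2 fold change of 0.46 (SE 0.32), or 0.42 with the block (SE 0.17, adjusted p = 0.499). In pairs 1 and 2 alone the log2 fold change was -0.07 and in pairs 3 and 4 alone 0.82. The gene syf-1 (XAB2), a scaffold of the same assembly, had 59.1, 52.9, 117 and 127 CPM in controls and 64.1, 48.8, 60.3 and 77.8 CPM after spk-1(RNAi). Its spk-1(RNAi) libraries were all below controls 3 and 4 and close to controls 1 and 2. The means were 89.03 ± 38.5 and 62.7 ± 11.97 CPM (SD, n = 4), a log2 fold change of -0.51 (SE 0.32), or -0.45 with the block (SE 0.17, adjusted p = 0.468), with 0.01 in pairs 1 and 2 alone and -0.83 in pairs 3 and 4 alone. The name-giving prp-19, a ubiquitin ligase, was at 138 ± 36.7 and 152 ± 43.6 CPM, and cdc-5L, which binds it, at 309 ± 50.0 and 284 ± 31.5 CPM (SD, n = 4). The remaining genes, skp-1 (SNW1), emb-4 (aquarius), the cyclophilin cyn-4 and prp-17, lay between 0.01 and 0.10 on the log2 scale. The deposited values of syf-2, the last of the group, are those described with rnp-7.

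The DEAH helicases mog-4 (Prp2), mog-1 (Prp16), mog-5 (Prp22) and ddx-15 (Prp43) act in that order, from activation to the release of the intron. Their median log2 fold change was -0.01, with 2 above and 2 below 0. The lowest was mog-1, with 65.2, 58.3, 59.0 and 63.7 CPM in controls 1 to 4 and 53.4, 47.7, 63.4 and 49.8 CPM in spk-1(RNAi) 1 to 4. It was lower in pairs 1, 2 and 4, and its groups overlapped only through spk-1(RNAi) 3, with a log2 fold change of -0.20 (SE 0.19), or -0.20 with the block (SE 0.13, adjusted p = 0.656). The highest was mog-5, with 85.8, 56.5, 71.3 and 75.3 CPM in controls and 95.1, 71.7, 74.6 and 67.2 CPM after spk-1(RNAi), overlapping groups with a log2 fold change of 0.09 (SE 0.21), or 0.08 with the block (SE 0.12, adjusted p = 0.861). Both mog-4 and ddx-15 lay within 0.10 of 0 on the log2 scale.

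Of the 2 other splicing-associated genes, tcer-1 was lower in 4 of 4 pairs. Its junction reads were 254, 189.8, 341 and 336 CPM in controls 1 to 4 and 174, 153, 264 and 314 CPM in spk-1(RNAi) 1 to 4. The groups overlapped, the means being 280.4 ± 72.4 and 226 ± 75.7 CPM (SD, n = 4), and the log2 fold change was -0.31 (SE 0.29), or -0.33 with the block (SE 0.11, adjusted p = 0.404). It stayed below 0 in pairs 1 and 2 alone (-0.44), in pairs 3 and 4 alone (-0.24) and without each library in turn. The other gene, mog-3, had 161, 84.9, 282 and 218 CPM in controls and 197, 118, 214 and 208 CPM after spk-1(RNAi), overlapping groups with a log2 fold change of -0.02 (SE 0.35), or 0.05 with the block (SE 0.14, adjusted p = 0.931).

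Single introns were then compared, in CPM scaled over introns. Of the 183 member introns 0 passed edgeR's test at an adjusted p of 0.05, as did 0 of all 20324 introns (0.0%), and at an unadjusted p under 0.05 there were 0 member introns beside 0.851% of all introns. With the block 0 member introns passed, beside 0.0689% of all introns. At an unadjusted p under 0.05 the blocked fit held 6 higher member introns (3.28%, beside 3.93% of all introns) and 8 lower ones (4.37%, beside 4.48%). The log2 fold changes of the 183 introns had a median of 0.01, and 95 of 183 were above 0. They ran from -0.93 at the first intron of syf-1 to 0.98 at the 44-nt intron after exon 4 of K04G7.11, the one placed in rnp-7 by its length. That 44-nt intron (chromosome III, 7160895 to 7160938) had 13.1, 17.9, 24.7 and 24.3 CPM in controls 1 to 4 and 19.7, 18, 66.4 and 52.6 CPM in spk-1(RNAi) 1 to 4. Its spk-1(RNAi) libraries 3 and 4 lay above every control, and libraries 1 and 2 lay among the controls. With the block its log2 fold change was 0.88 (SE 0.22, adjusted p = 0.273).

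In pairs 3 and 4 alone, the deeper libraries, 2 member introns were called, beside 0.271% of all introns, and both were short, with values far above controls 3 and 4. The 44-nt intron was the first (log2 fold change 1.27, SE 0.24, adjusted p = 0.038). The second was the 45-nt intron after exon 2 of plrg-1 (chromosome V, 10807767 to 10807811), with 31.5, 121, 92.9 and 94.5 CPM in controls 1 to 4 and 31.8, 74.7, 210.1 and 289 CPM in spk-1(RNAi) 1 to 4 (log2 fold change 1.404 in pairs 3 and 4, SE 0.21, adjusted p = 0.00984). Only spk-1(RNAi) 3 and 4 lay above every control, and pair 2 went the other way. The other 3 introns of plrg-1 held 23.8 to 57.3 CPM in controls and 22.5 to 59.7 CPM after spk-1(RNAi), so the difference of this gene in pairs 3 and 4 was seen at its first listed intron. The neighbour of plrg-1 on the 3′ side, on the same strand, is prp-38, with a gap of 86 nt in the reference annotation. In syf-1 all 4 listed introns were below 0 in the blocked fit. The 47-nt intron after exon 1 had 9.29, 10.7, 37.0 and 39.8 CPM in controls and 12.1, 8.04, 11.6 and 19.2 CPM after spk-1(RNAi), with a blocked log2 fold change of -0.80 (SE 0.28, adjusted p = 0.469), and from the second listed intron to the last the blocked log2 fold changes were -0.75, -0.46 and -0.17. Over all 8 libraries the test of unequal movement within a gene did not call syf-1 (adjusted p = 0.989 in diffSpliceDGE with the block) or plrg-1 (adjusted p = 0.933).

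Unequal movement of introns within a gene was tested with edgeR's diffSpliceDGE in the 39 members that had at least 2 introns. Without the block 0 members passed, beside 0.0229% of genes tested, and 0 were at an unadjusted p under 0.05, beside 0.229%. With the block 0 passed, beside 0.0686%, and prp-38 (unadjusted p = 0.00906, adjusted p = 0.683) and prp-4 (0.0198 and 0.751) were under 0.05, or 5.13% of members beside 5.7% of genes. In prp-38 the 45-nt intron after exon 2 had a blocked log2 fold change of 0.29 (SE 0.18) and the 185-nt intron after exon 3 one of -0.44 (SE 0.18). In pairs 3 and 4 alone 1 member was called, plrg-1 (adjusted p = 0.00497), beside 0.458% of genes. A choice between sites could be read directly in tcer-1, where a 144-nt intron skips the short exon between the 58-nt and the 59-nt introns. Reads that skipped it made up 23.4% ± 9.68 of the reads at the shared donor in controls and 25.8% ± 10.2 after spk-1(RNAi) (SD, n = 4), and 28.1% ± 9.97 and 29.0% ± 9.63 of those at the shared acceptor. Each share rests on at least 70 reads in a library, and the groups overlapped.

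**Figure D4:**
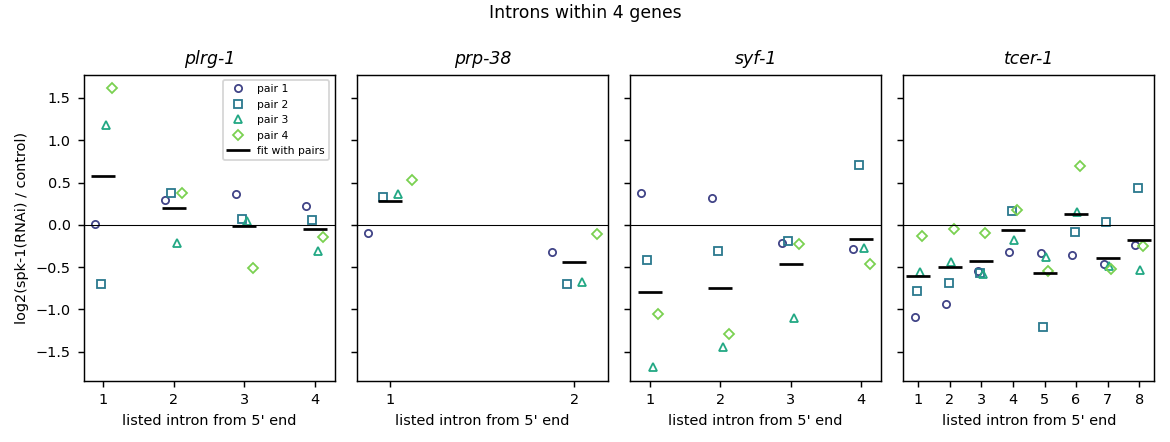
Log2 of spk-1(RNAi) over control for each listed intron of plrg-1, prp-38, syf-1 and tcer-1, counted from the 5′ end, with 1 symbol for each pair and a black bar for the edgeR estimate with pairs as a block. At the first intron of plrg-1 pairs 3 and 4 lie above 1 and pair 2 below -0.5, and at the first introns of syf-1 pairs 3 and 4 lie below -1 while pair 1 lies above 0.

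The authors' own tests were read for the same genes. Under a p-value of 0.01 in the authors' deposited table stood 2 member introns (1.09%, beside 1.26% of all introns), that after exon 6 of tcer-1 (p = 0.0022) and that after exon 3 of prp-6 (p = 0.0059). Under a p-value of 0.05 in the authors' deposited table stood 9 member introns (4.92%, beside 6.02%). In the authors' deposited table of DEXSeq exon bins, 0 of 379 member bins had an adjusted p under 0.05, beside 0.00355% of all bins, and 5 (1.32%, beside 0.986%) had an unadjusted p under 0.05. Of those 5 bins 4 lay in tcer-1 and 1 in snr-7, and the table gives no direction. The bins of some members, lsm-3 and prp-31 among them, are listed under joined genes. Some of the 379 bins may therefore belong to a gene that is not a member.

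Replicates 1 and 2 of both groups stood apart from replicates 3 and 4, and in most members by more than the groups differed. The level in pairs 3 and 4 minus that in pairs 1 and 2, in log2 CPM, had a median of 0.29 over the members, beside -0.04 over all genes. It ran from -1.23 in cyn-4 to 2.22 in rnp-7 as named in the table, with sap-49 at 1.80, snr-6 at 1.32 and uaf-1 at 1.17 on the high side and prp-4 at -1.09 on the low side. The median was 0.87 over the Sm genes. Differences over 2-fold between the sets were seen in 6 of 49 members (12.2%), beside 20.9% of all genes. The set difference was larger than the blocked difference between groups in 43 of 49 members (87.8%), beside 83.8% of all genes. The direction of the difference between groups was the same within pairs 1 and 2 and within pairs 3 and 4 in 25 of 49 members.

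**Figure D5:**
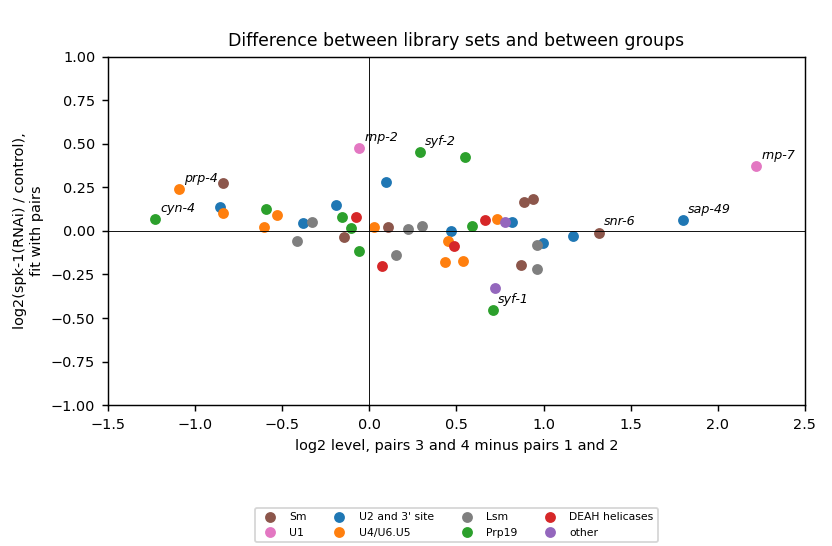
For each of the 49 members, the log2 difference between library sets (pairs 3 and 4 minus pairs 1 and 2, horizontal axis) against the log2 fold change of spk-1(RNAi) over control with pairs as a block (vertical axis), coloured by role. Points spread from -1.23 to 2.22 along the horizontal axis and only from -0.45 to 0.48 along the vertical axis.

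The introns of the core spliceosome genes were longer than those of other measured genes. Their median length was 107 nt, beside 57 nt over all introns, with 71 of 183 (38.8%) under 60 nt, beside 51.5%. Introns of 1000 nt or more made up 27 of 183 (14.8%), beside 7.98%. They were concentrated in prp-6 and emb-4, with 7 each, and uaf-1, with 5, and the longest was one of 3013 nt in emb-4. Of the 49 genes 14 lay on chromosome III, 11 on II, 9 on IV, 8 on I and 7 on V. None (0) lay on the X chromosome, where 394 of all genes (6.84%) lay.

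The genes around the core machine, read from fixed lists, held 0 genes called by edgeR with or without the block. Of 39 measured further spliceosome genes 14 were above and 25 below 0, with a median log2 fold change of -0.06. Genes of these lists are named here at an unadjusted p under 0.05 in the blocked fit. That rule held 5.09% of all genes as higher and 4.51% as lower. Among the further spliceosome genes bud-31 was higher (log2 fold change 0.30, SE 0.11, adjusted p = 0.422). On the same rule smn-1, which loads Sm rings onto RNA, was lower (-0.44, SE 0.15, adjusted p = 0.413), as were the second-step factor prp-18 (-0.57, SE 0.21, adjusted p = 0.446), cyn-16 (-0.41, SE 0.17, adjusted p = 0.502) and snrp-40.2 (-0.40, SE 0.18, adjusted p = 0.504). Of 9 exon junction complex genes 5 were above and 4 below 0 (median 0.07), and pinn-1 was lower (-0.38, SE 0.12, adjusted p = 0.379). Of 8 genes for SR proteins and their kinase 2 were above and 6 below 0 (median -0.05), with rsp-5 lower (-0.36, SE 0.14, adjusted p = 0.468) and spk-1 itself higher through the introns named above. Of 19 hnRNP-type and regulatory factors 7 were above and 12 below 0 (median -0.15), with hrpk-1 (-0.29, SE 0.11, adjusted p = 0.426) and tiar-2 (-0.42, SE 0.18, adjusted p = 0.502) lower.

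Because the germ line is a large share of an adult worm and is rich in splicing factors, markers of tissues were read beside these results. All 25 germline markers were measured, with a median log2 fold change of -0.01 and a range from -0.67 to 0.11. Of these, 11 were above and 14 below 0. Lower values in 4 of 4 pairs were seen in 4 of them (9.55% of all genes) and higher values in 0 (9.63% of all genes). Their sums were 13320, 10480, 12820 and 12760 CPM in controls 1 to 4. In spk-1(RNAi) 1 to 4 they were 12880, 10020, 13200 and 11980 CPM, lower in pairs 1, 2 and 4. Of 14 sperm markers 0 had a listed intron, and the list gives no value. All 11 measured muscle markers, of 18 listed, were above 0 (median 0.23), with sums of 3640 to 13860 CPM in controls and 5008 to 14550 CPM after spk-1(RNAi). Of 10 measured intestine markers 9 were above 0 (median 0.10), as were 2 of 3 neuronal markers (median 0.18). Of 5 measured hypodermis markers 3 were above 0 (median 0.48), and their sum was higher in 4 of 4 pairs, at 514, 573, 679 and 839 CPM in controls 1 to 4 and 804, 1388, 863 and 987 CPM in spk-1(RNAi) 1 to 4. At an unadjusted p under 0.05 edgeR held 2 of those 5 (0.937% of all genes). On that rule the blocked fit held 3 higher hypodermis, 4 higher muscle and 1 higher intestine markers (5.09% of all genes). It also held 1 lower germline marker (4.51% of all genes). DESeq2 with the block called 1 hypodermis and 1 intestine marker higher (0.573% of all genes), and edgeR called 0 markers. The muscle sums were low in libraries 1 and 2 and high in libraries 3 and 4 of both groups, as were most Sm genes, and the part of tissue make-up in the members' values was not tested.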

How the data were processed

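Polyadenylated RNA of whole adult worms was measured in 8 strand-marked libraries. TopHat 1.4.1, Bowtie2 2.0.0 and the build ce10 appear in the submitters' processing notes, with no role stated. How reads were counted, which annotation was used and how introns were picked is not given in the sources used here. The authors' junction table holds, per the file headers, raw read counts for each intron, and deposited p-values for each. The authors' DEXSeq table holds deposited p-values, adjusted p-values and a mean signal per exon bin. One heading, spk-1(RNAi) replicate 1, stood above 2 columns. They were numbered 1 and 4 through the headings of the deposited ratios. The printed digits of those ratios matched these columns divided by the control of that number in 100% of introns. The place of the decimal point was not compared, and the headings name control first. At headings 1 and 4 no other spk-1(RNAi) column matched in more than 0.644%. Unused columns of per-sample values numbered 0.

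The 25 introns listed on both strands were counted once, which left 20324 of 20349. Introns were summed by the gene's sequence name, and 160 introns without a gene were left out. Of 5762 genes 5707 matched a symbol in the reference annotation, which is of another build, so coordinates are the table's own in ce10. Intron lengths matched that annotation for 98.9% of 20051 compared. An intron can be ascribed to the wrong neighbour by the table, as for rnp-7, syf-2 and lsm-3.

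Counts were tested with edgeR 4.0.16 (quasi-likelihood, TMM scaling, default filter on low counts) and DESeq2 1.42.0 in R 4.3.3, fitted over all genes or introns with Benjamini-Hochberg adjustment and a threshold of 0.05. CPM use the TMM library sizes of each table, so values per gene and per intron differ slightly. The scripts were tested on simulated data. Same-numbered libraries of the groups deviated together, with correlations of 0.881, 0.686, 0.713 and 0.754 in pairs 1 to 4, and were treated as pairs on that ground. The sample labels state no pairing, while the headings of the deposited ratios set libraries of the same number against each other. Between numbers 3 and 4 the correlations, 0.699 and 0.687, were nearly as high, so there the data show the library set more than the number. The fit without pairs is the main one, and the blocked fit stands beside it. Values in every library are given for members with the highest or lowest fold change of their group, an unadjusted p under 0.05 in either fit, groups without overlap, or a deposited intron p under 0.01. Members and lists were chosen with earlier results of these data known.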

Additional observations from a re-analysis of the deposited data

How the results depend on the processing

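No member passed edgeR's test (0 of 49) under another scaling, without the filter, without spk-1 reads, within either library set, in pairs 2 and 3 alone with the replicate block, without each library in turn, or with introns placed by annotated length. Over all genes the count at these settings was 0, except 7 in pairs 3 and 4 alone and 17 in pairs 2 and 3 alone with the replicate block. With the replicate block the count also stayed at 0 in edgeR and came to 1 in DESeq2, and to 1 in DESeq2 with the block and the introns placed by length, a choice made after the data were seen. These calls were syf-2 (log2 fold change 0.45, adjusted p = 0.0177) and rnp-7 (0.45, adjusted p = 0.0213), and the exchange follows from the 4 introns moved between them. In pairs 3 and 4 alone 2 member introns and 1 member for intron usage were called, against 0 for each in all 8 libraries, and the cause was not tested. The median log2 fold change of the DEAH helicases, -0.01 in all libraries, was -0.0914 in pairs 3 and 4 alone and ran from -0.11 to 0.0755 without 1 library. The median over all members ran from -0.03 to 0.07 without 1 library and was 0.06 in pairs 1 and 2 alone and -0.04 in pairs 3 and 4 alone. The fold change had the same sign in every fit without 1 library, each left out in turn, in 13 of 49 members. No blocked value other than those named changed a call. Fits of introns and intron usage by DESeq2 or with placed introns were not run. Depth limits the shallow pair 2, where the control held 1821717 reads.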
